A study of Mus musculus with 2 samples.

Results

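Serpins are a family of structurally related proteins, most of which inhibit serine or cysteine proteases. The members described here were the genes whose symbol starts with Serpin, with Serping1 left out. The gene list of the count tables held 61 such genes of 27998 genes in all, and 41 of them had at least 20 unique molecular identifiers (UMIs, each standing for 1 captured RNA molecule) over both libraries. Of the 41, 20 belonged to clade B, 14 to clade A, 2 each to clades E and F, and 1 each to clades C, H and I. Serpinf2, at 21 UMIs, was the lowest member kept, and Serpind1, at 12 UMIs, the highest left out; 8 of the 20 genes left out had no UMI at all.

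Dorsal skin of wild-type C57BL/6 mice, female and 2 months old, was dissociated and profiled by droplet-based single-cell RNA sequencing. The control library came from control skin, for which no treatment is stated. The IMQ library came from skin given topical imiquimod, a Toll-like receptor agonist that causes psoriasis-like inflammation, daily for 5 days. Each condition had 1 library, the labels do not state how many mice each held, and condition and library therefore cannot be told apart. Intervals below are 95% intervals that cover counting error only, and no test between conditions was possible.

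A serpin inhibitor presents a loop that the protease cleaves as if it were a substrate, and the pair is then locked in an inactive complex. Clade B serpins lack a classical signal peptide and act mostly inside cells, where many protect the cell from its own or from leukocyte proteases. Clades A, C, E, F, H and I are mostly secreted or reside in the secretory pathway, and include inhibitors of clotting, of plasminogen activators and of leukocyte proteases. Some serpins do not inhibit proteases, such as the collagen chaperone Serpinh1 and the secreted factor Serpinf1. In skin, the balance of kallikrein proteases and their inhibitors controls shedding of the cornified layer.

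After filtering, 10297 control and 8499 IMQ cells remained, with medians of 9596 and 12650 UMIs per cell. Cells were assigned to classes by marker genes that included no serpin, and 99.1% of the cells assigned fell in a cell cluster of the same class. The keratinocyte class held 1596 control and 2108 IMQ cells, and the fibroblast class 6665 and 3591. Most keratinocytes of the control library lay in clusters 6, 15, 23 and 27, and most of the IMQ library in clusters 9, 10 and 33. Free RNA, estimated from markers of other classes, stood in keratinocytes at 2.95% of the control library's average level and 1.57% of the IMQ library's. The libraries shared 23 cell barcodes.

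A run of clade B genes lies on chromosome 1, 11 of them placed there by GENCODE M21. The sequences before the start sites of 6 are shown because neighbours in this run moved in opposite directions in the data. Among the 6, Serpinb5 differed by less than 2-fold between the libraries in keratinocytes. Promoters were those of RefSeq on GRCm38.p6, 250 bases before to 50 after each start, and 34 of the 41 genes had one. The 250 bases before the first listed start are printed 5′ to 3′ on the gene's strand. Capitals mark the AP-1 motif TGANTCA and the TATA box TATAAA, each on either strand.
Serpinb5 (chr1:106860925-106861174, plus strand): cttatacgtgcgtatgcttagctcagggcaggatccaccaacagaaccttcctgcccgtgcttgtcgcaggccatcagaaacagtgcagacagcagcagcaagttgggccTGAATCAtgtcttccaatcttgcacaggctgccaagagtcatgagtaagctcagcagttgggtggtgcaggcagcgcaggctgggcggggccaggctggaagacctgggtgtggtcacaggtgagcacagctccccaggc
Serpinb2 (chr1:107511173-107511422, plus strand): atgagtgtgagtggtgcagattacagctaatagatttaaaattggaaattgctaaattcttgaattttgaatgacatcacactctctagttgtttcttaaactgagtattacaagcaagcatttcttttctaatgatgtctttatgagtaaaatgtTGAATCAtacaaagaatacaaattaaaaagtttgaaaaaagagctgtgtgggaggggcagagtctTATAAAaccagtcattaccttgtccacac
Serpinb7 (chr1:107422439-107422688, plus strand): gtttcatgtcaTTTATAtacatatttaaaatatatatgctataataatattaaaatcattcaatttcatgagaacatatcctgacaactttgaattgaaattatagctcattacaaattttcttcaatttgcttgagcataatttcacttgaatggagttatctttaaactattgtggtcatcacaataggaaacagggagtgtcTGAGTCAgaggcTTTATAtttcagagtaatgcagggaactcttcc
Serpinb11 (chr1:107362064-107362313, plus strand): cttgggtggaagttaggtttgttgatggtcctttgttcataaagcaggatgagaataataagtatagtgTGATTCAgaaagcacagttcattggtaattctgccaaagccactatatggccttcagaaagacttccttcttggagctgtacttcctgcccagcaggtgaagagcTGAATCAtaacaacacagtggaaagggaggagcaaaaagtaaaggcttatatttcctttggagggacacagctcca
Serpinb3a (chr1:107052304-107052553, minus strand): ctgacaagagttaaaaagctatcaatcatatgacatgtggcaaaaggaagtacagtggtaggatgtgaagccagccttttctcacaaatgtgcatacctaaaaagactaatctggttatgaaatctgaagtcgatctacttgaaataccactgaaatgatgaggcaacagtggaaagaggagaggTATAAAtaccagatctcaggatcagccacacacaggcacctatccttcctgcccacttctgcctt
Serpinb3b (chr1:107161115-107161364, minus strand): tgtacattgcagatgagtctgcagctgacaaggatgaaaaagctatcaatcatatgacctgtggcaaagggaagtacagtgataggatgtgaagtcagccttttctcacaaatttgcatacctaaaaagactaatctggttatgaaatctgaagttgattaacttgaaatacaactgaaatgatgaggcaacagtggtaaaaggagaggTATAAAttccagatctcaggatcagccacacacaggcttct
The first 4 promoters hold an AP-1 match, at 140 bases before the start in Serpinb5, 94 in Serpinb2, 45 in Serpinb7, and at 181 and 76 in Serpinb11. The last pair, from the near-copies Serpinb3a and Serpinb3b, hold none, are 85.7% identical over the whole window, and share a TATAAA, 65 bases before the start in Serpinb3a and 41 in Serpinb3b. Serpinb3a and Serpinb2 were 53.7% identical by the same alignment.

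TGANTCA was found in 7 of the 9 clade B genes that were higher in keratinocytes than in fibroblasts in both libraries (Serpinb5, Serpinb12, Serpinb11, Serpinb7, Serpinb2, Serpinb10 and Serpinb8), and in 7.81% of all 32851 promoters in the table (8.97% of genes). Of the 7 genes of clades A, E, F and H that were higher in fibroblasts, 5 had a promoter in the table and none of these held it. Of the genes higher in IMQ keratinocytes, 8 had a promoter in the table and 1 of these, Serpinb11, held it. Of the lower genes, 8 had a promoter and 3, Serpinb7, Serpinb2 and Serpinb8, held it. The STAT motif TTCNNNGAA, in 8.30% of all promoters, was found in Serpinb2, Serpinb6a, Serpina3f, Serpina3g and Serpina3i. TATAAA, in 13.6% of all promoters, was found in 11 serpin genes, among them all 4 Serpinb3 genes. The looser NF-kB motif and the C/EBP motif TTNNGNAA were in 50.8% and 40.7% of all promoters, and in 16 and 26 of the 34 serpin genes. Both strands were searched, matches of different motifs could overlap, and neighbouring genes that arose by duplication share part of their sequence, so these matches are a description of letters.

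Clade B and the stromal clades divided largely, but not wholly, between epidermis and dermis. Genes were compared between keratinocytes and fibroblasts where both classes together held 20 or more UMIs in a library. Between libraries, genes were compared where a class or layer held 20 or more UMIs over both libraries. They were called higher or lower where they differed 2-fold or more and the interval excluded equality. Of 15 clade B genes measured in both libraries, 9 were higher in keratinocytes, 2 in fibroblasts and 4 in neither. Of 10 genes of clades A, E, F and H, 7 were higher in fibroblasts, 1 in keratinocytes and 2 in neither. Other genes of these clades were measured in 1 library only or in neither, and are outside this count. Where measured, Serpina12, Serpina3b, Serpina9, Serpinb13, Serpinb3c and Serpinb3d were higher in keratinocytes. Serpina10 (1 keratinocyte and 21 fibroblast UMIs in IMQ) and Serpinb9b (0 and 28 in IMQ) were higher in fibroblasts. Serpina12 had 1621 keratinocyte and 16 fibroblast UMIs in control, a ratio of 196 (120 to 344), Serpina3b 146 and 5 in control, a ratio of 56.5, and Serpina9 374 and 4 in IMQ, a ratio of 72.4. The fibroblast levels behind these ratios were not above 3 times the free RNA level, so the sizes of the ratios are uncertain. Over all 14230 genes measured, 18.6% were higher in keratinocytes and 21.4% in fibroblasts in both libraries.

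The epidermal side was led by Serpinb2 and Serpinb5. Serpinb2, an inhibitor of the plasminogen activators, stood at 1321 CPM (UMIs of the gene per 1000000 UMIs of the class) in control keratinocytes and 4.39 in control fibroblasts. Serpinb5 (maspin), a serpin without known protease inhibition, stood at 961 and 3.73 CPM, a ratio of 257 (227 to 292). In the IMQ library the ratio for Serpinb5 was 244 (203 to 295), and these intervals overlapped. Serpinb12, an inhibitor of trypsin-like proteases, was 269-fold higher in control keratinocytes (157 to 505) and 255-fold higher in IMQ keratinocytes (134 to 558). The fibroblast levels of Serpinb2, Serpinb5 and Serpinb12 were not above 3 times the free RNA level, so the sizes of their ratios are uncertain. Serpinb8, an inhibitor of furin, was less restricted, at 8.05-fold and 4.64-fold. It reached 163 CPM in control macrophages and monocytes, where its interval overlapped that of keratinocytes.

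The clade B exceptions were Serpinb6a and Serpinb9. Serpinb6a, an inhibitor of cathepsin G, was 2.71-fold higher in control fibroblasts (2.64 to 2.78) and 3.13-fold higher in IMQ fibroblasts, and was also high in endothelial cells (403 and 523 CPM). Serpinb9, an inhibitor of granzyme B, was 8.80-fold and 18.9-fold higher in fibroblasts than in keratinocytes, but its highest levels were in lymphocytes and dendritic cells. It stood at 171 and 146 CPM in T and natural killer cells. Serpinb6b was highest in the same leukocytes, at 238 and 262 CPM in dendritic cells and 207 and 242 in T and natural killer cells, with overlapping intervals.

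Serpinb1a, an inhibitor of neutrophil elastase, cathepsin G and proteinase 3, had its highest level in the mast cell and basophil class, at 2384 CPM in 33 control cells and 1598 in 81 IMQ cells. Within that class, cells with mast cell transcripts stood at 3280 CPM in control (29 cells, 2732 to 3905) and 4556 in IMQ (32 cells, 4096 to 5054). The 23 IMQ cells with basophil transcripts stood at 686 CPM. The other 26 IMQ cells stood at 290.5 CPM, so the level of the whole class varied with its mix of cells.

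On the stromal side, Serpinh1, the collagen chaperone, was the most abundant serpin, at 1966 CPM in control fibroblasts and 1863 in IMQ fibroblasts. Pericytes and smooth muscle cells followed at 449 and 865 CPM. Serpinf1, a secreted anti-angiogenic factor, stood at 1098 and 1091 CPM in fibroblasts, 62.4-fold and 112-fold above keratinocytes. Its keratinocyte levels, 17.6 and 9.74 CPM, were not above 3 times the free RNA level, so the sizes of these ratios are uncertain. The next highest Serpinf1 level in control was 67.7 CPM, in macrophages and monocytes.

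Serpine2, an inhibitor of thrombin and urokinase, was higher in vessel-wall and nerve-sheath cells than in fibroblasts. In control it stood at 481 CPM in endothelial cells, 408 in pericytes and smooth muscle, 325 in Schwann cells and 123 in fibroblasts. The intervals of endothelial cells and of pericytes and smooth muscle overlapped. Serpina3c, Serpina3m and Serpina3n, of the antichymotrypsin locus, were 76.7-fold, 185-fold and 44.8-fold higher in control fibroblasts than in keratinocytes. The keratinocyte levels of these 3 genes were not above 3 times the free RNA level, so the sizes of these ratios are uncertain. Serpina3g, an inhibitor of cathepsin-type cysteine proteases, was the clade A gene higher in keratinocytes among those measured in both libraries, at 5.70 against 1.65 CPM, although T and natural killer cells held more (23.5 CPM). Serpini1 (neuroserpin), an inhibitor of tissue plasminogen activator, was highest in pericytes and smooth muscle, at 40 UMIs (15.8 CPM) in control and 53 in IMQ.

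**Figure D1:**
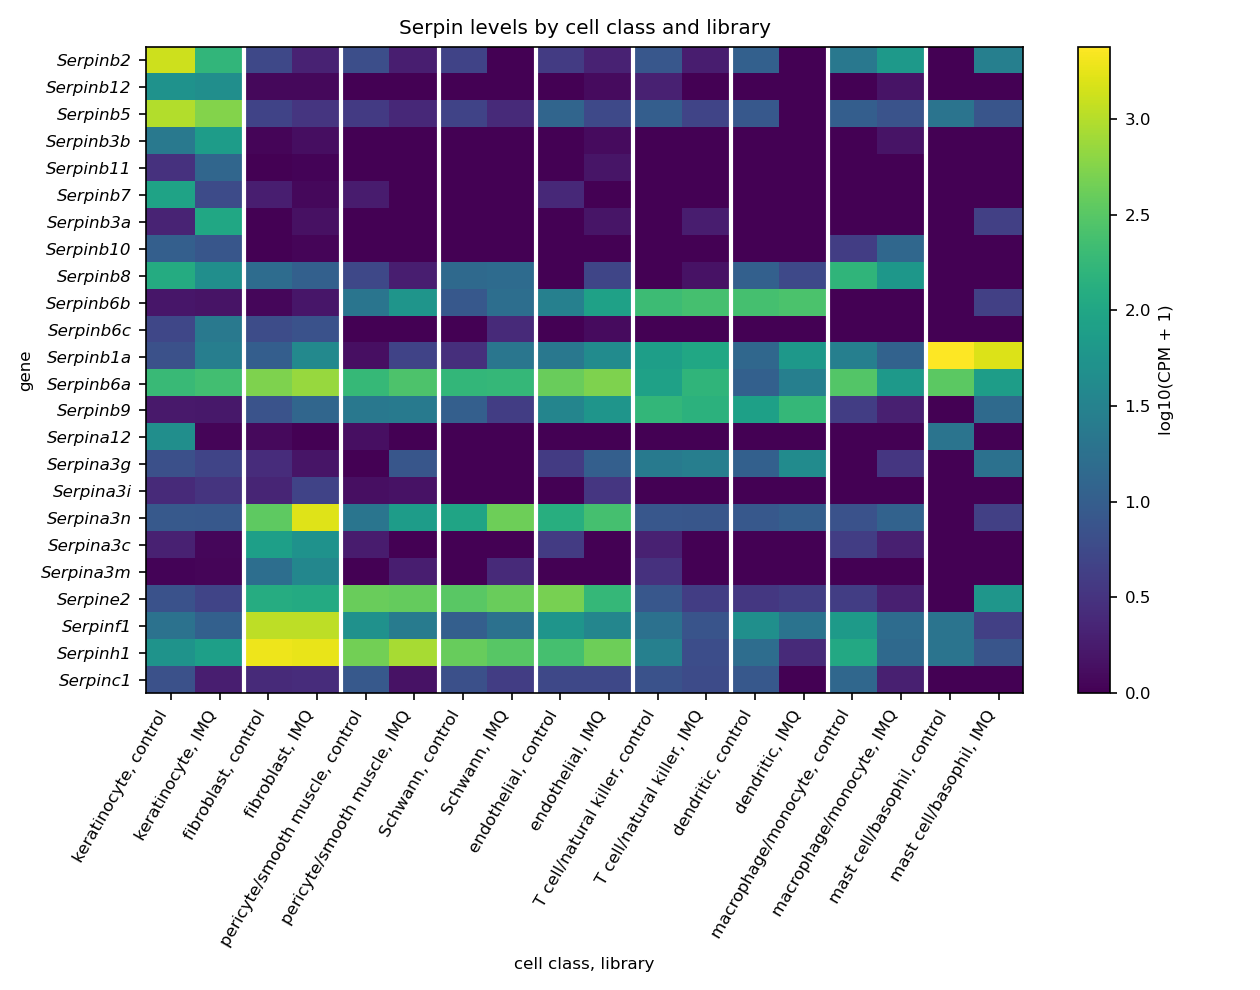
Level of 24 serpin genes with at least 500 UMIs, as log10(CPM + 1), with genes in rows by clade and cell classes in columns, control and IMQ side by side. Serpinb2 and Serpinb5 were brightest in keratinocytes, Serpinh1, Serpinf1 and Serpina3n in fibroblasts, and Serpinb1a in the mast cell and basophil class.

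In keratinocytes, imiquimod skin differed from control skin in 20 of the 32 serpin genes measured, 11 higher and 9 lower, where 11.2% and 11.9% of all 14085 genes were. The median log2 ratio was -0.16 over the serpins and 0.02 over all genes. Of the 11 higher genes, 8 were of clade B. The lower genes held the most abundant serpin of control keratinocytes, Serpinb2.

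The Serpinb3 genes, counterparts of the human squamous cell carcinoma antigens that inhibit cathepsins and chymotrypsin-like proteases, were higher. Serpinb3a rose from 42 UMIs (1.19 CPM) in control to 6630 (102 CPM) in IMQ, 86.1-fold (63.6 to 120). At least 1 Serpinb3a UMI was seen in 1.504% of control and 23.2% of IMQ keratinocytes, against 0.0150% and 0.613% of fibroblasts. At an equal depth of 5000 UMIs, the shares in keratinocytes were 0.318% and 14.1%. Serpinb3b rose from 22.3 to 72.8 CPM, 3.26-fold (3.02 to 3.52). Serpinb3d went from no UMI to 111, 20.2-fold higher against a floor of 3 counts, and Serpinb3c from 2 to 26 UMIs, a ratio of 7.09 (1.77 to 61.6).

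Serpinb3a, Serpinb3b and Serpinb3c are near-copies, while Serpinb3d was 63.8% identical to its closest serpin over the last 500 bases. Even so, 7.32% of the 50-base stretches of Serpinb3d there also occurred in other serpin transcripts, most of them in Serpinb3b. The last 500 bases of the Serpinb3b transcript were 94.2% identical to those of Serpinb3c, 7.10% of its 50-base stretches there also occurred in other serpin transcripts, and the annotated spans of this pair overlap on the same strand. For Serpinb3a the figures were 93.2%, to Serpinb3c, and 1.33%. How reads were divided among them is not stated by the labels or headers, so the split within the group is uncertain.

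Other clade B genes were higher as well. Serpinb11 went from 2.07 to 12.2 CPM (5.89-fold, 4.63 to 7.60), and Serpinb6c, a relative of Serpinb6a that is 81.4% identical to it over the last 500 bases, from 4.22 to 22.4 CPM (5.31-fold). Serpinb1a went from 5.78 to 26.5 CPM, 4.58-fold (3.95 to 5.32). Serpinb1b rose from 2 to 32 UMIs. Outside clade B, Serpina9 (centerin), known from germinal centre B cells, went from 10 to 374 UMIs (20.4-fold, 11.0 to 42.9). Serpina3f went from 12 to 78 UMIs.

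The lower genes included Serpinb2, Serpinb7 and Serpina12. Serpinb2 fell from 1321 to 164 CPM, 8.06-fold (7.89 to 8.23), over 46580 and 10598 UMIs. At 5000 UMIs per cell, 64.0% of control and 19.6% of IMQ keratinocytes had a Serpinb2 UMI, against 2.19% and 0.470% of fibroblasts. Serpinb7, mutated in a human palmoplantar keratosis, fell from 90.8 to 4.92 CPM, 18.5-fold (16.5 to 20.8). Serpina12 (vaspin), an inhibitor of the kallikrein Klk7, fell from 1621 UMIs to 7, 425-fold (206 to 1058). Its control UMIs lay in 4.89% of keratinocytes, with 148 in 1 cell.

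Serpinb8 fell from 119 to 45.04 CPM, 2.63-fold. Serpinc1 (antithrombin) fell from 5.84 to 0.897 CPM, Serpina3b from 146 to 16 UMIs, Serpinb13, an inhibitor of cathepsins, from 32 to 2 UMIs, and Serpini1 from 33 to 29 UMIs in the larger IMQ class. Serpina3c was also lower, but its 37 and 10 UMIs were not above 3 times the free RNA level. Abundant members that did not pass the 2-fold threshold were Serpinb5 (961 and 564 CPM), Serpinb6a (193 and 226), Serpinb12 (51.1 and 45.8) and Serpinh1 (53.4 and 79.3). Serpinh1 turned to a log2 ratio of -0.37 when keratinocytes were taken by cluster.

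**Figure D2:**
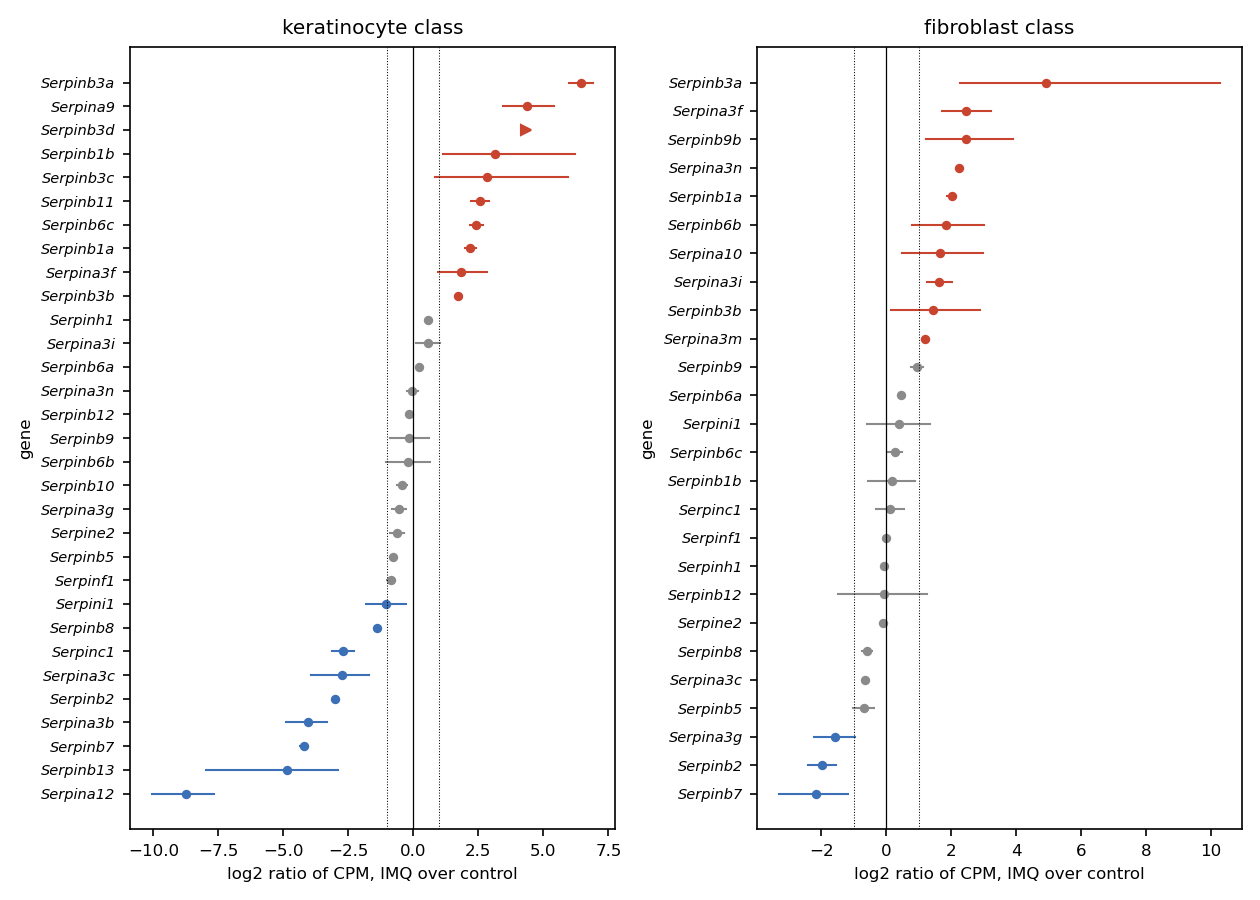
Log2 ratio of CPM, IMQ over control, for serpins measured in the keratinocyte class (left) and the fibroblast class (right), with 95% counting intervals. Red points were higher, blue lower and grey neither, and dotted lines mark 2-fold. A triangle marks a ratio with the library that had no UMI set to a floor of 3 counts. Serpinb3a, at 6.43, and Serpina12, at -8.73, mark the ends in keratinocytes.

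On chromosome 1 the direction changed within a short distance. The 11 clade B genes placed there span chr1:106861173-107610484 by GENCODE M21, on GRCm38. In IMQ keratinocytes 5 of them were higher, 4 lower and 2 neither. The higher genes, Serpinb3a, Serpinb3d, Serpinb3b, Serpinb3c and Serpinb11, follow one another, from 184.4 kb beyond the first base of Serpinb5. The next gene, Serpinb7, at 538.5 kb, was lower, as were Serpinb2 and Serpinb8 further on and Serpinb13 on the other side. Serpinb10 was matched to RefSeq by symbol, and its identifier had no position in the annotation used. Its RefSeq promoter lies at chr1:107528753-107529052, between the starts of Serpinb2 and Serpinb8, but Serpinb10 is outside these counts. The clade B group at chr13:32842092-34002794 held 3 higher genes (Serpinb1a, Serpinb1b and Serpinb6c), none lower and 3 neither. The clade A group at chr12:103614786-104414329, which holds Serpina12, Serpina9 and the Serpina3 genes, had 2 higher, 3 lower and 3 neither.

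**Figure D3:**
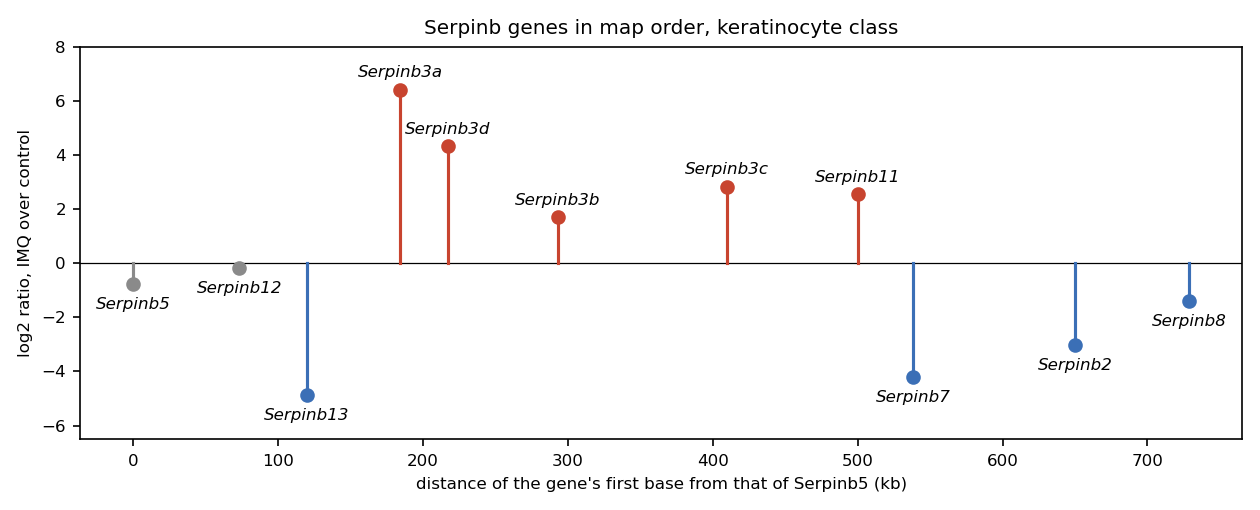
Log2 ratio, IMQ over control, in keratinocytes for the 11 clade B genes placed on chromosome 1 by GENCODE M21, which leaves out Serpinb10. The horizontal axis is the distance of each gene's first base from that of Serpinb5 in kb. Red was higher, blue lower and grey neither. The 5 red genes form 1 unbroken run, with blue genes on both sides.

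The make-up of the keratinocyte class differed between the libraries, so levels were also compared within layers. Layers were set from the share of suprabasal transcripts among basal and suprabasal ones, and suprabasal cells were divided by granular transcripts and by Krt79, a keratin of the upper hair follicle. Basal cells numbered 615 in control and 1354 in IMQ, of which 104 and 827 lay in cluster 9, the keratinocyte cluster with the highest levels of the hair follicle genes Sox9, Lhx2 and Lgr5. There were 188 and 434 transitional, 397 and 75 spinous, 153 and 99 granular, and 243 and 146 Krt79 cells. In IMQ keratinocytes 243 of 2108 lay within 0.05 of a boundary of that share, and 85 of 1596 in control. Of suprabasal cells, 67 of 320 in IMQ and 101 of 793 in control lay within 2-fold of a Krt79 or granular boundary. Serpins higher and lower numbered 9 and 8 of 26 in the basal layer (7.43% and 8.81% of all genes), 7 and 8 of 22 in the transitional (6.70% and 13.0%), and 5 and 7 of 18 in the spinous (5.46% and 15.9%). They numbered 7 and 8 of 18 in the granular (6.43% and 23.0%) and 7 and 4 of 17 in the Krt79 layer (6.07% and 19.8%). These layer counts were not limited to genes above 3 times the free RNA level. Free RNA in keratinocytes stood at 2.95% of the library's level in control and 1.57% in IMQ. The lower genes of the transitional, spinous, granular and Krt79 layers included the fibroblast genes Serpinh1 and Serpinf1. The part of free RNA in their calls was not tested.

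Serpinb3a was higher in every layer. It stood at 2.64 and 494 CPM in spinous cells and at 2.61 and 699 CPM in granular cells, control and IMQ, a granular ratio of 268 (165 to 469). In basal cells it went from no UMI to 246 (5.96 CPM). Serpinb3b reached basal cells in IMQ skin as well, from 2 UMIs to 982, 0.155 and 23.8 CPM. In spinous cells it went from 52.3 to 175 CPM. Serpinb1a and Serpinb6c were the other members higher in all 5 layers, in granular cells from 1.80 to 34.0 and from 5.55 to 108 CPM.

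Serpinb2 was lower in 4 of the 5 layers, and not in Krt79 cells. It stood at 601 and 65.7 CPM in basal cells, 798 and 178 in transitional cells, 2273 and 251 in spinous cells, and 1996 and 752 in granular cells. In Krt79 cells it stood at 533 and 520 CPM, a ratio of 0.974 (0.915 to 1.04). Without the basal cells of the follicle-gene cluster, the basal log2 ratio was -3.02. Serpinb8 likewise was lower in basal (68.8 and 29.2 CPM) and granular cells (213 and 104) but stood at 184 and 159 CPM in Krt79 cells.

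Serpinb7 and Serpina12 were granular genes in control skin. Serpina12 had 1576 of its 1621 control keratinocyte UMIs in granular cells, where it fell from 257 to 1.91 CPM, 135-fold (65.4 to 336). Serpinb7 fell from 373 to 55.8 CPM in granular cells, 6.68-fold (5.79 to 7.74), and from 312 UMIs to 6 in basal cells. In Krt79 cells it was higher, at 10.6 and 21.9 CPM, a ratio of 2.07 (1.39 to 3.12). The granular cells of IMQ skin also held less loricrin (Lor, 5315 and 379 CPM), more filaggrin (Flg, 734 and 3382 CPM) and more of the basal keratin Krt14 (83.9 and 4899 CPM), so the layer itself differed, and the part of this in the serpin values was not tested.

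Serpinb12 showed no 2-fold difference over all keratinocytes but was higher in 3 layers. In granular cells it stood at 122 and 575 CPM, 4.72-fold (4.34 to 5.14), in transitional cells at 3.38 and 23.7 CPM, and in Krt79 cells at 1 and 247 UMIs. In spinous cells it stood at 105 and 130 CPM. With the layers of both libraries weighted by their shares of control cells, Serpinb12 stood at 38.5 and 99.2 CPM, 2.57-fold higher, against 51.1 and 45.8 CPM unweighted. The same weighting, chosen after seeing the data, left Serpinb2 4.48-fold, Serpina12 145-fold and Serpinb5 1.196-fold lower. It left Serpinb7 6.55-fold lower, and Serpinb8 1.74-fold lower, under the 2-fold threshold. Serpinb5 stood at 410.1 and 409.7 CPM in basal cells and at 1434 and 943 CPM in spinous cells.

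Among the keratinocyte layers, Serpinb10, known from blood-forming cells, had its highest level in basal cells in both libraries. It had 297 of its 332 control keratinocyte UMIs there and fell from 23.0 to 10.2 CPM, 2.26-fold. In IMQ, macrophages and monocytes held more Serpinb10, at 12.3 CPM against 6.96 in keratinocytes as a whole, with intervals apart. Serpina9 had 317 of its 374 IMQ UMIs in basal cells, but its IMQ level was similar in basal (7.68 CPM) and granular cells (7.35 CPM). Serpinb11 went from 4.41 to 9.13 CPM in basal cells and from 1.96 to 60.2 in granular cells. Serpinc1 was lower in all 5 layers, by 5.42-fold to 7.30-fold.

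**Figure D4:**
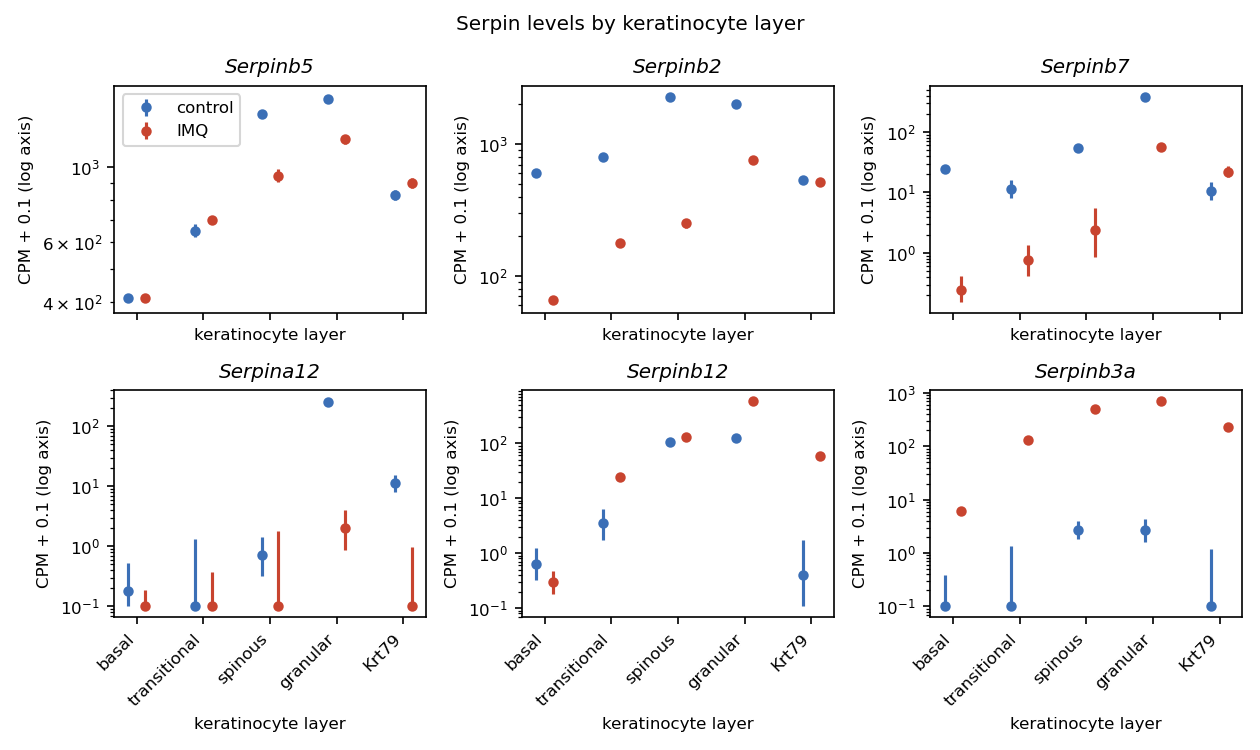
Level of 6 serpins in CPM (plus 0.1, log axis) by keratinocyte layer, control in blue and IMQ in red, with 95% counting intervals. Serpinb2 was lower in IMQ except in Krt79 cells, Serpina12 was lower in granular cells, and Serpinb3a was higher in each layer.

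In fibroblasts, 11 of 27 serpins measured were higher and 3 lower, where 11.8% and 4.48% of all 14464 genes were; 8 and 1 of these stood above 3 times the free RNA level in the class. The median log2 ratio of all genes was 0.26, so ratios in this class sat above a raised baseline. Serpina3n, an inhibitor of granzyme B and leukocyte elastase, led in abundance. It rose from 349 to 1650.0 CPM, 4.72-fold (4.66 to 4.79), over 23853 and 82686 UMIs. At 5000 UMIs per cell, 56.8% of control and 81.6% of IMQ fibroblasts had a Serpina3n UMI, against 2.07% and 3.93% of keratinocytes. Its last 500 bases were 75.2% identical to the closest serpin and shared no 50-base stretch with any.

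Serpina3m rose from 15.7 to 36.1 CPM, 2.30-fold. Relative to the median of all genes, its log2 ratio was 0.94, under 2-fold. Serpinb1a rose from 9.37 to 37.8 CPM, 4.04-fold (3.69 to 4.42), a similar size to that in keratinocytes. Serpina3i, Serpina3f, Serpinb9b and Serpina10 were higher at low counts, between 21 and 189 UMIs in IMQ. Of the IMQ UMIs, 27 of 28 for Serpinb9b lay in cluster 0, and 16 of 21 for Serpina10 in cluster 3. Serpinb9b and Serpina10 were neither higher nor lower within those clusters, while Serpina3f and Serpina3i were higher within cluster 3. Serpinb3a, Serpinb3b and Serpinb6b passed the threshold but were not above 3 times the free RNA level, nor were Serpinb2 and Serpinb7 among the lower genes. Serpina3g fell from 113 to 28 UMIs, 2.96-fold (1.94 to 4.65).

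The abundant stromal serpins stayed within 2-fold in fibroblasts as a whole: Serpinh1 at 1966 and 1863 CPM, Serpinf1 at 1098 and 1091, Serpine2 at 123 and 114, Serpina3c at 80.5 and 51.0, and Serpinb6a at 524 and 710. Fibroblast clusters 4 (2115 and 5 cells) and 5 (1045 and 25) were nearly all control and cluster 2 (8 and 1055) nearly all IMQ, while 6 clusters had at least 50 cells in both libraries. Serpina3n was higher in IMQ in 6 of 6, with ratios from 2.82 (cluster 11, led by Cxcl10 and Cxcl13) to 10.2 (cluster 1, led by Thbs4 and Col8a1). Serpinb1a had ratios above 1 in 6 of 6, from 1.42 to 3.94, and passed the 2-fold threshold in 4.

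Serpinf1 was below 1 in 6 of 6 of these clusters, with log2 ratios from -0.86 to -0.35, although the class as a whole had a ratio of 0.993. Its control levels ranged from 927 to 2403 CPM among the clusters, and no cluster passed the 2-fold threshold. Serpinh1 went the other way in 5 of 6 clusters, with log2 ratios from -0.13 to 0.49.

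**Figure D5:**
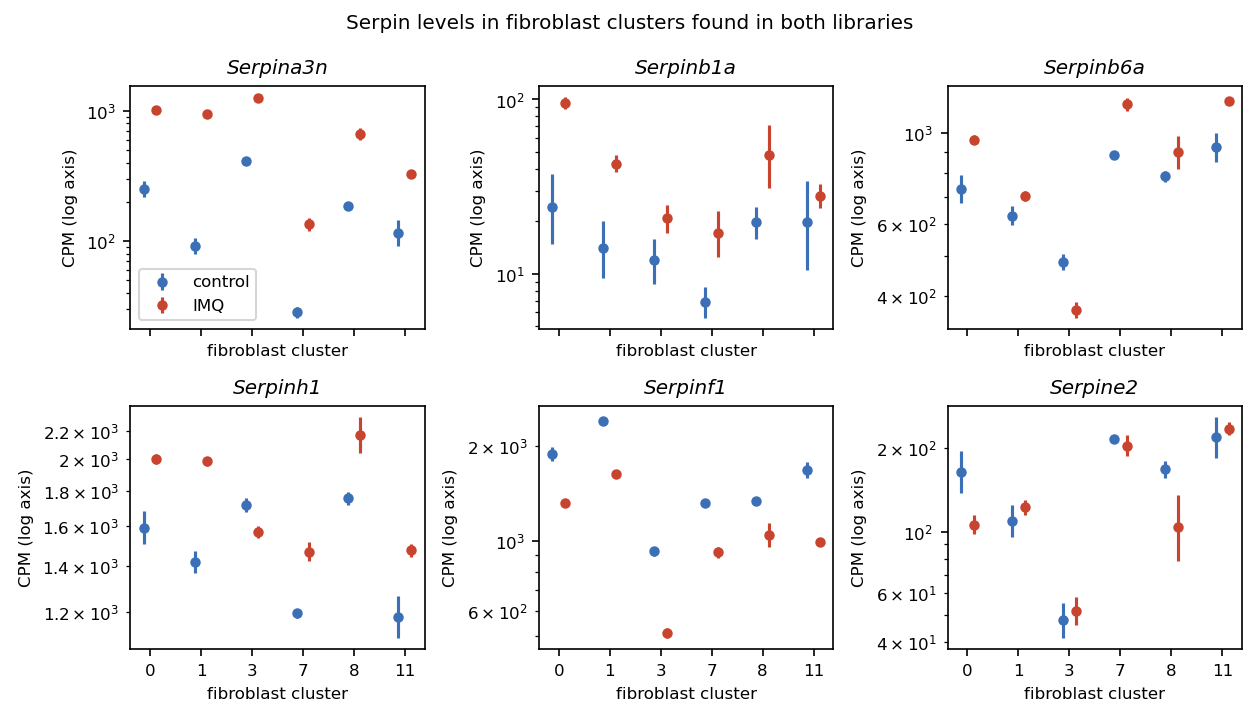
Level in CPM (log axis) of 6 serpins in the 6 fibroblast clusters with at least 50 cells in both libraries, control in blue and IMQ in red, with 95% counting intervals. Serpina3n was higher and Serpinf1 lower in IMQ in each of the 6 clusters, Serpinf1 by less than 2-fold.

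Pericytes and smooth muscle cells (331 and 187) had 3 of 10 measured serpins higher and 2 lower, where 6.92% and 7.34% of all genes were. Serpina3n rose from 19.8 to 72.6 CPM (3.68-fold, 2.66 to 5.16) and Serpinb6b from 19.8 to 57.5. Serpinc1 fell from 20 UMIs to 1, and Serpinf1 was lower but not above 3 times the free RNA level. In Schwann cells (159 and 164), Serpina3n rose from 50 UMIs to 275 (429.7 CPM), 4.57-fold (3.37 to 6.31), and was 1 of 4 measured to pass, where 2.83% of all genes were higher and 2.12% lower. Serpina3n was higher in these 2 classes and in fibroblasts; in keratinocytes it stood at 7.80 and 7.61 CPM, not above 3 times the free RNA level.

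T and natural killer cells (244 and 409) had 1 of 9 measured serpins higher and 2 lower, where 8.29% and 6.10% of all genes were. The higher gene was Serpinb9b, a relative of Serpinb9, at 11.2 and 28.6 CPM (2.55-fold, 1.33 to 5.35). The lower genes, Serpinh1 and Serpinf1, were not above 3 times the free RNA level. Serpinb9, at 171 and 146 CPM, and Serpinb6b, at 207 and 242 CPM, did not pass.

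Classes with at least 30 but under 100 cells in a library were added after seeing the data. In endothelial cells (80 and 278), Serpine2 fell from 481 to 175 CPM, 2.75-fold (2.40 to 3.15), while Serpinb6b rose from 28.8 to 85.1 CPM. Serpina1b, of the alpha-1 antitrypsin group, had no UMI in control and 25 in IMQ endothelial cells, 1.58-fold higher against a floor of 3 counts. Serpina1d and Serpina1e had 15 and 16 UMIs there and none in control. The split within this group is uncertain: 29.5% of the 50-base stretches of Serpina1b, 41.5% of Serpina1d and 16.4% of Serpina1e also occurred in other serpins, and the spans of Serpina1b and Serpina1d overlap. In dendritic cells (67 and 70), Serpinb9 rose from 81.8 to 177 CPM, Serpinb1a from 5 to 41 UMIs and Serpina3g from 4 to 27. Serpinf1 fell from 19 to 12 UMIs.

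In macrophages and monocytes (64 and 305), Serpinb6a fell from 299 to 67.1 CPM, 4.45-fold (3.39 to 5.82), and Serpinb8 from 163 to 60.2. Serpinb1a fell from 9 to 21 UMIs, that is from 27.7 to 10.4 CPM. The fibroblast genes Serpinh1 and Serpinf1 fell as well, from 108 to 13.3 and from 67.7 to 14.8 CPM. The median control cell of this class had 3 markers of another class on, against 2 in IMQ, and the part of that in these differences was not tested. Serpinb2 was higher, at 21.6 and 66.1 CPM, on 7 control UMIs, and lower when cells were classed by cluster, with a log2 ratio of -1.07. Serpinb6a fell in the mast cell and basophil class, from 18 UMIs in control to 22 in the larger IMQ class. Of the 41 members, 5 were measured in none of these 9 classes: Serpinf2, Serpinb6e, Serpina1d, Serpina1e and Serpina3k.

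A chosen list of 48 proteases, receptors and related genes, of which 47 were found, moved in both directions. Whether each is a target of these serpins was not tested. In keratinocytes 9 of the 34 measured rose and 8 fell, where 11.2% and 11.9% of all genes did, and the median was 0.07 (log2). The highest ratios were those of Klk13 (1.76 and 54.0 CPM, 30.7-fold), Klk14 (no UMI and 85), Klk10 (5.84 and 47.1 CPM, 8.07-fold) and Klk6 (33.3 and 136 CPM), all kallikreins. The lowest were those of Gzma, a granzyme (48 and 5 UMIs), Klk5, a kallikrein of cornified layer shedding (234 and 33.6 CPM, 6.95-fold lower), the thrombin receptor F2r (10.6 and 2.02 CPM) and Klk11 (39.2 and 15.1 CPM). In fibroblasts 12 of 33 rose and 3 fell, where 11.8% and 4.48% of all genes did, and 8 and 1 of these stood above 3 times the free RNA level. The median log2 ratio was 0.55, beside 0.26 for all genes. Of the genes at the ends, Prtn3 (229 UMIs in IMQ), F2rl1 (167) and the lower Gzmc (36) stood above that level. Mcpt8, Klk6, Klk5 and Tmprss4 did not, and Mcpt4 did not pass 2-fold with its interval.

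Protease inhibitors outside the serpin family, a list of 26 genes, also moved both ways. In keratinocytes 7 of the 22 measured rose and 6 fell, where 11.2% and 11.9% of all genes did, and the median was -0.14 (log2). Stfa2, BC100530, Stfa1, which are stefins that inhibit cysteine cathepsins, and Wfdc18 had the highest ratios; BC100530 rose from 200.5 to 4251 CPM, 21.2-fold, and Stfa1 from 31.8 to 638 CPM. Wfdc21 (121 and 2.41 CPM, 50.1-fold lower), Spink5 (766 and 176 CPM, 4.35-fold lower), which encodes the kallikrein inhibitor LEKTI, Itih5 and Wfdc12 had the lowest. In fibroblasts 7 of 21 were higher and 2 lower, where 11.8% and 4.48% of all genes were, and 4 and 0 of these stood above 3 times the free RNA level. The metalloprotease inhibitor Timp1 rose from 58.3 to 676 CPM, 11.6-fold, and Spink2 from 5 to 129 UMIs. BC100530, at 15.1 CPM in IMQ beside a free RNA level of 72.5, and Stfa1, at 2.69 beside 10.9, were below that level, and the lower Wfdc21 and Spink5 did not stand above 3 times it. Timp2 (2780 and 1591 CPM) and Timp3 (424 and 262 CPM) had low ratios that did not pass.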

How the data were processed

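Raw UMI counts per gene and cell barcode, as deposited by the authors, were used for 1 control and 1 IMQ library of dorsal skin. The submitters' processing notes name Cell Ranger 3.0.2, Seurat 2.0 and mm10, but per the file headers version 5.0.0 of Cell Ranger made the matrices; aligner settings are not stated by either. Cells with at least 200 genes and at most 10% mitochondrial UMIs were kept (121631549 control and 141358594 IMQ UMIs). A cell belonged to the class with the most markers on, at least 3, and at least double those of the next class; 9.73% and 10.4% of cells had no class. Doublets were called with Scrublet in scanpy 1.11.5 (4.10% and 1.29%) and left out only as an alternative. Clusters were Leiden clusters of both libraries, found without serpin genes.

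UMIs were summed per class and library, giving CPM with exact Poisson intervals and ratios with exact binomial intervals. Intervals cover counting error only, since each condition had 1 library. The interval and threshold code was tested on simulated data. Genes of at least 500 UMIs, and any serpin past 2-fold in a class of at least 100 cells, were named; for the lists, the 4 highest and 4 lowest ratios. The members, lists and layer rules were chosen with earlier results of these data known. Alternatives changed cell filters, class rules, scaling, weighting, free RNA and minimum counts. The counts of serpins include 1 member that is not reported here.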

Additional observations from a re-analysis of the deposited data

Results flagged for a closer look

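Serpinb2 had opposite directions in different classes: its log2 ratio, IMQ over control, was -3.01 in keratinocytes and 1.62 in macrophages and monocytes, the latter on 7 control UMIs. Serpinb1a had log2 ratios of 2.19 in keratinocytes, 2.01 in fibroblasts and 2.35 in dendritic cells, and -1.42 in macrophages and monocytes. Serpina3g had 2.07 in dendritic cells and -1.57 in fibroblasts. In each case the class ratios pointed opposite ways with 1 library per condition, and the difference between classes was not tested.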

How the results depend on the processing

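No paired analysis was possible because each group had 1 library. Of 969 values of class ratios under an alternative, 888 stayed in their counting interval and 80 left it, and 1 past the threshold changed direction: Serpinb2 in macrophages and monocytes, at -1.07 with Leiden clusters. For ratios of keratinocytes over fibroblasts, 389 of 461 stayed in their interval, and for layer ratios 348 of 396; no ratio past the threshold changed direction there. In keratinocytes, counts of higher and lower serpins stayed within 1.5 times of 11 and 9 under each alternative run, as did the counts between keratinocytes and fibroblasts. In fibroblasts, 6 serpins were higher with at least 100 UMIs, and 1 was lower with free RNA subtracted and 6 with no minimum count. In pericytes and smooth muscle, 5 were higher with Leiden clusters and 6 with no minimum, and 4 lower with no minimum, against 1 with at most 5% mitochondrial UMIs, the stricter gate, free RNA subtracted or at least 100 UMIs. In T and natural killer cells, 2 were higher without the highest cell or with free RNA subtracted and 0 with at least 100 UMIs; 6 were lower with Leiden clusters, 1 without Scrublet doublets or with means over cells, and 0 with free RNA subtracted or at least 100 UMIs. In Schwann cells, Leiden clusters gave 3 higher and 1 lower, and no minimum 2 higher. In the spinous layer, with 75 IMQ cells, keratins alone gave 3 higher, and leaving out doublets 4 lower. The stricter minimums test fewer genes; otherwise the cause was not tested. The depth of the smaller classes limited what could be measured there.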
